A study of Homo sapiens with 48 samples.

Results

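The transcriptome of a UPF1 mutant line was compared with and without an siRNA against UPF1, in 6 of the 48 libraries of the series, chosen by their labels. Flp-In 293 T-REx cells derive from human embryonic kidney and carry 1 site into which a transgene can be inserted, and the line described here stably expressed CLIP-tagged UPF1 E797R. The 3 control libraries came from cells given a non-targeting siRNA (siNT), and the other 3 from cells given the UPF1 siRNA (siUPF1). Each siRNA was used at 40 nM, and RNA was taken after 72 h and depleted of ribosomal RNA. The comparison lines were treated in the same way with 3 libraries per siRNA. They expressed CLIP-tagged wild-type UPF1 (WT), the UPF1 mutant labelled LECY, or the CLIP tag with no UPF1 named in the label (CLIP). All these lines kept their endogenous UPF1 gene, which the design text names as the siRNA's target. The labels do not say whether a line is 1 clone or a pool, or how the transgene was switched on.

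UPF1 is an RNA helicase that uses ATP to move along RNA and remodel bound proteins. It is the central factor of nonsense-mediated mRNA decay (NMD), which removes mRNAs whose translation ends too early, and also many normal mRNAs with long 3′ untranslated regions, upstream reading frames or an exon junction after the stop codon. Several NMD factors are encoded by mRNAs that are themselves NMD targets, so their levels are commonly read beside UPF1 depletion.

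Total expected counts in the E797R libraries ran from 6016999, the lowest of the series, to 10453889. Correlations between replicates of a group lay between 0.9721 and 0.9856. Of 58870 genes in the table, 16697 had enough counts to be tested. Of markers of other cell types, 2 of 13 neural (STMN2 and DCX), 1 of 10 fibroblast (COL1A2) and 3 of 10 blood genes (CD3E among them) were at 0 in all 6 libraries. The neural list summed to 298 to 489 CPM with siNT and 261 to 492 CPM with siUPF1 (CPM are counts scaled to the library's total), the fibroblast list to 7.11 to 9.83 CPM and 9.33 to 12.3 CPM, and the blood list to 6.99 to 13.01 CPM and 5.53 to 7.10 CPM. The summed level of 12 embryonic kidney 293 markers was 1119 to 1250 CPM with siNT and 1014 to 1132 CPM with siUPF1.

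UPF1 mRNA itself (chromosome 19, 18831938 to 18868236, GENCODE 29 on hg38) was not called in the E797R line. It stood at 4348, 3549 and 5008 CPM with siNT and at 4296, 4140 and 4349 CPM with siUPF1, and the groups overlapped. The log2 change was -0.01 (SE 0.11, adjusted p = 0.961 by edgeR's quasi-likelihood test with Benjamini-Hochberg adjustment, which gives every adjusted p below). The gene-level count adds transgene and endogenous reads, so loss of the endogenous mRNA cannot be read from it. Below, a knockdown effect means the change from siNT to siUPF1, and a loss of UPF1 was not shown in E797R or WT. In CLIP, where no UPF1 transgene is labelled, UPF1 changed by -2.37 on the log2 scale (adjusted p = 2.1e-17), and the difference between the 2 lines was 2.36 (adjusted p = 1.14e-12).

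Across the transcriptome, 1392 of the 16697 genes (8.34%) rose and 1290 (7.73%) fell at an adjusted p under 0.05. At a change of at least 1.5-fold, 530 genes (3.17%) rose and 657 (3.93%) fell. Same-numbered libraries varied together, and with the replicate number as a block the counts were 2330 genes higher (14%) and 2253 lower (13.5%). The median change of all genes was -0.01 on the log2 scale. The groups of 3 libraries did not overlap for 28.6% of all genes tested, and for 2535 of the 2682 called genes. Called genes were 16.1% of those tested, and called genes whose groups did not overlap were 15.2% of those tested. Leaving out 1 library at a time gave 950 to 1187 genes higher and 900 to 1059 lower.

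The largest falls included genes of signalling, neurons and metabolism. PRDX3, a mitochondrial peroxidase that removes hydrogen peroxide, stood at 98.6, 92.9 and 93.7 CPM with siNT and at 12.5, 18.3 and 15 CPM with siUPF1. Every siUPF1 library lay below every control, and the log2 change was -2.66 (SE 0.16, adjusted p = 2.12e-15). ETV4, an ETS-family transcription factor, went from 20.5, 22 and 21.2 CPM to 2.65, 4.02 and 3.24 CPM, a log2 change of -2.71 (SE 0.23, adjusted p = 3.23e-11). MSX1, a homeobox transcription factor of early development, went from 30.8, 25.7 and 36.3 CPM to 5.94, 4.02 and 5.37 CPM. Its log2 change was -2.57 (SE 0.17, adjusted p = 1.46e-14). STMN3, a microtubule-destabilising protein of neurons, went from 39.7, 46.5 and 55.4 CPM to 7.53, 6.2 and 8.72 CPM, again without overlap (log2 change -2.63, SE 0.28, adjusted p = 1.44e-08).

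The other large falls were of less abundant mRNAs. CAMKV, a kinase-like protein of synapses, had the largest fall by rule, at -3.07 (SE 0.47, adjusted p = 7.21e-06), from 5.03, 3.49 and 7.52 CPM to 0.742, 0.838 and 0.335 CPM. CPLX1, which acts in synaptic vesicle release, changed by -2.46, and RIDA, a deaminase of reactive imines, by -2.36. LOX, which crosslinks collagen, changed by -2.28 and SCART1 by -2.29. MGAT3, a glycosyltransferase, changed by -2.59 (adjusted p = 0.00812), and without siNT replicate 3 its adjusted p was 0.0706. NOTCH3, a Notch receptor, changed by -2.24 (adjusted p = 0.036) but ranged from 4.49 to 17.6 CPM among its controls. Its adjusted p was 0.215 without siNT replicate 3, 0.161 without siUPF1 replicate 1 and 0.113 without siUPF1 replicate 2.

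The largest rises were mostly of mRNAs that were scarce in the controls. The most abundant was SRPRA, a subunit of the receptor that docks ribosomes at the endoplasmic reticulum, at 60 CPM, 43.3 CPM and 45 CPM with siNT and 181, 159 and 143 CPM with siUPF1. All 3 siUPF1 libraries were above all controls, and the log2 change was 1.70 (SE 0.16, adjusted p = 1.68e-10). NR6A1, a nuclear receptor of germ cells and embryos, rose from 32.1, 26.4 and 27.6 CPM to 125, 81.8 and 80 CPM (log2 change 1.74, SE 0.25, adjusted p = 4.99e-06). ENPP5, a membrane phosphodiesterase family member, rose from 4.45, 4.49 and 4.34 CPM to 24.7, 17.3 and 18.4 CPM (log2 change 2.19, SE 0.24, adjusted p = 1.13e-08).

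NCKAP1L, a regulator of actin in blood cells, had the largest rise at 2.98 (SE 0.54, adjusted p = 0.00012), from 0.775, 0.499 and 0.867 CPM to 5.3, 4.69 and 7.04 CPM. VAV1, a signalling protein of blood cells, rose by 1.74. The summed level of the 10 blood markers was 6.99 to 13 CPM with siNT and 5.53 to 7.1 CPM with siUPF1. The part of other cells in these rises was not tested. The rest were IGFN1 (2.45), PAQR6 (2.00), the kinase WNK4 (1.80), the lipolysis inhibitor G0S2 (1.79), MAMDC4 (1.75), STMND1 (1.58) and FHAD1 (1.57). FHAD1 had an adjusted p of 0.0149, and of 0.0529, 0.083 and 0.203 without siNT replicate 1, siNT replicate 2 or siUPF1 replicate 3.

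**Figure D1:**
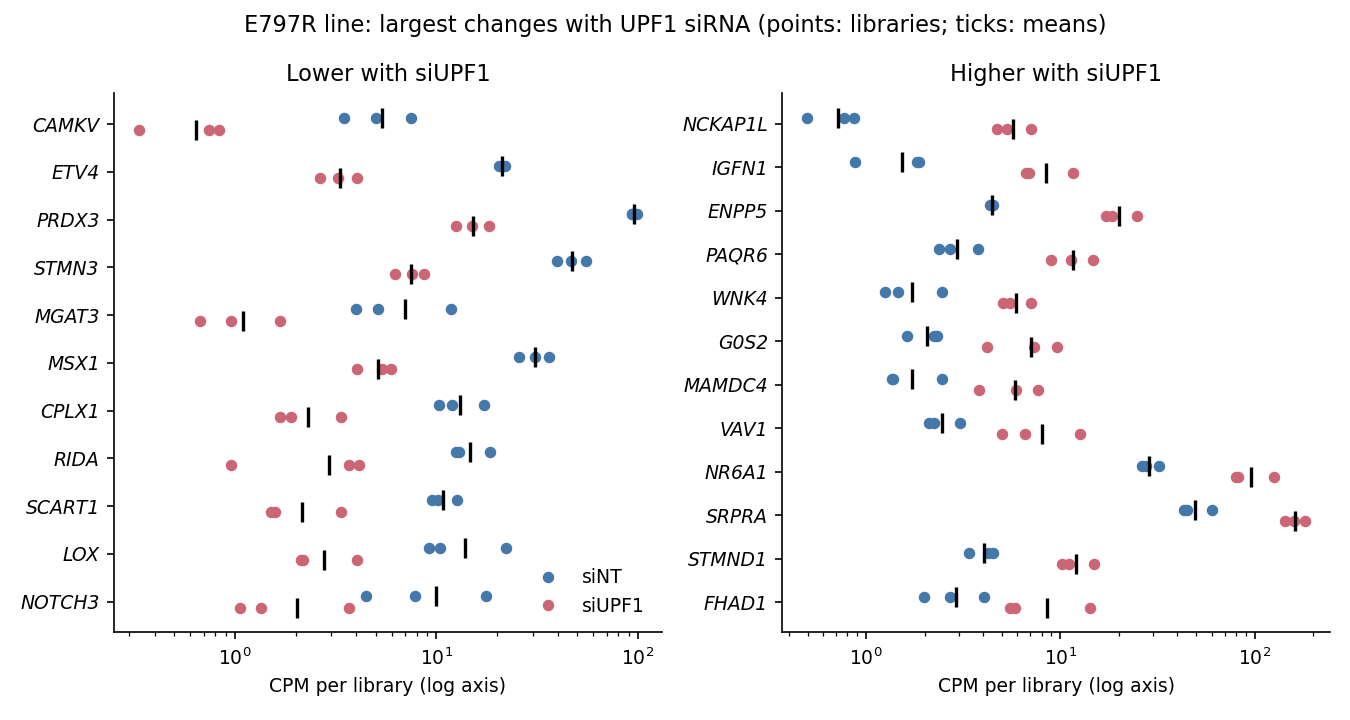
CPM in each of the 6 E797R libraries (log axis) for the largest falls and rises by the fixed rule, as far as they are reported here. Points are libraries (blue siNT, red siUPF1) and ticks are group means. The rule required that the groups not overlap, as seen for PRDX3 between 12.5 to 18.3 and 92.9 to 98.6 CPM.

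The same change was measured in the WT line, which shares no library with E797R. Of the 1392 genes that rose in E797R, 965 (69.3%) also rose in WT, where they made up 68.6% of the 1407 that rose (8.43% of genes tested). Of the 1290 that fell, 820 (63.6%) fell in WT, or 70.4% of the 1165 that fell there (6.98%). Such shares were not particular to WT. Of the E797R risers, 966 (69.4%) also rose in CLIP and 944 (67.8%) in LECY. In those lines 18.1% and 15.8% of all genes rose. Of the E797R fallers, 875 (67.8%) fell in CLIP and 864 (67%) in LECY, where 15.6% and 13.6% of all genes fell. PRDX3 changed by -2.66 in E797R and -2.50 in WT, MSX1 by -2.57 and -2.51, SRPRA by 1.70 and 1.99, and ETV4 by -2.71 and -1.85. The correlation of the 2 changes was 0.599, taken over genes, and genes do not replicate one another.

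When the difference between the 2 lines' knockdown effects was tested, no gene passed (0 of 16697). The smallest adjusted p was 0.362, and 273 genes (1.64%) had an unadjusted p under 0.05 by edgeR. Evenly spread p-values would put a share of 0.05 there, so the fit without the block was cautious for this difference. The reason was not tested. DESeq2 also called 0, and the replicate block called 0 with 551 genes at an unadjusted p under 0.05. Such a count does not show that the lines respond alike. In the fit without the block, the 95% interval of the difference lay within 1.5-fold for 44% of genes and within 2-fold for 69.2%. Among the genes called in E797R these shares were 62.5% and 86.3%. In data simulated at these depths, 28.4% of 1.5-fold, 68.7% of 2-fold and 90.9% of 4-fold differences were recovered, whatever the sign of the estimate. Only genes with a mean of at least 5 CPM were changed in the simulation, so these rates do not cover scarcer genes. No effect of the replicate number was simulated, and unchanged genes had the same mean in every group. The rates therefore need not hold for the test on the real data.

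The 6 largest differences to WT in each direction were erratic between replicates. SNORD3B-1, a copy of the U3 small nucleolar RNA, was at 69.5, 107 and 2.75 CPM with siNT and 1.8, 3.18 and 2.68 CPM with siUPF1, and its difference of -5.62 had an adjusted p of 1. AL139300.1, at 0 in all siUPF1 libraries of E797R, AC007192.1 (-2.49), AL136295.4 (-2.47), CU633906.1 (-1.80) and SMIM11B (-1.64) were the others on the low side. On the high side were AL356488.2, at 0 in all siNT libraries of E797R, AC116366.3 (2.20) and the U1 copies RNU1-27P, RNU1-4, RF00003 and RNU1-2, which had a shared value of 1.70. No size is given for AL139300.1 and AL356488.2, which were at 0 in a whole group. Reads from near-identical copies can be divided among them by the counting, so these values are uncertain.

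**Figure D2:**
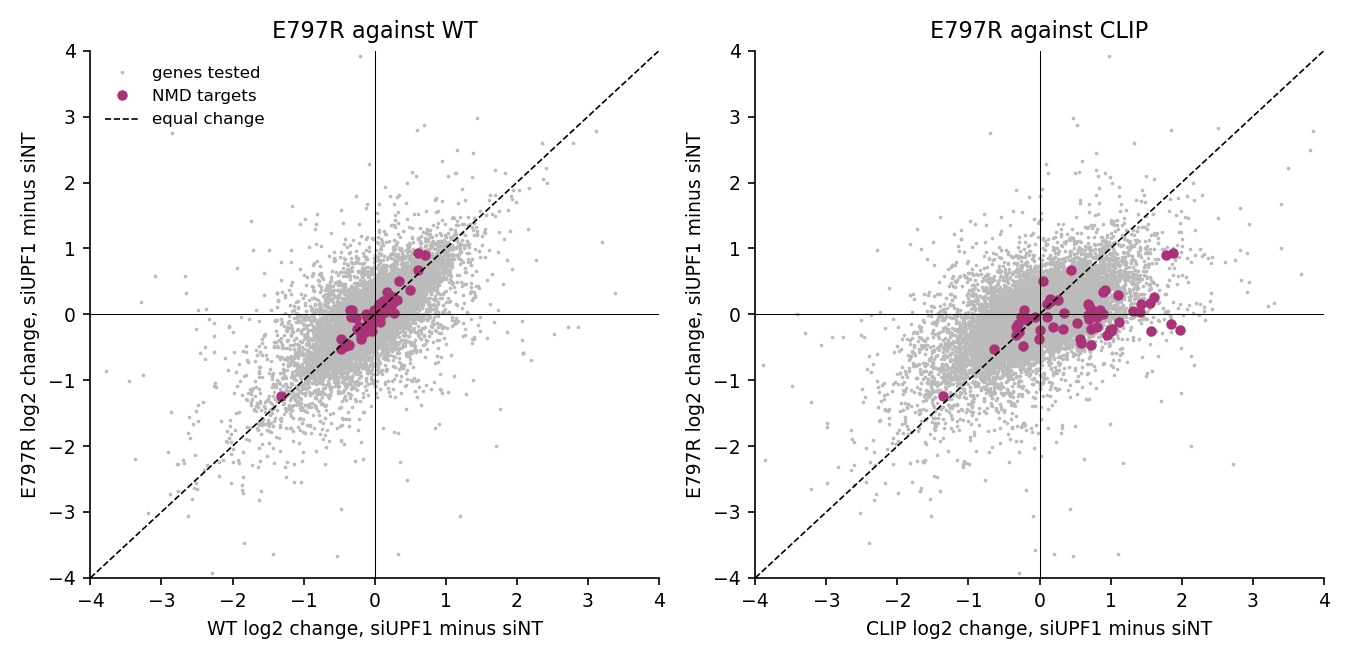
Log2 change with siUPF1 in E797R (vertical) against WT (left) and CLIP (right), for each tested gene in grey and the 56 NMD targets in purple; the dashed line marks equal change. 39 and 41 genes fall outside the axes. The NMD targets lie near the dashed line against WT and mostly to its right against CLIP.

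Against CLIP the difference of knockdown effects passed for 251 genes (1.5%) that were higher in E797R and 753 (4.51%) that were lower. With the replicate block the counts were 929 (5.56%) and 1454 (8.71%). Leaving out an E797R library gave 134 to 210 higher, and leaving out a CLIP library gave 130 to 249. The higher count fell more than 1.5-fold to 131 without CLIP siNT replicate 2, 139 without CLIP siUPF1 replicate 1 and 130 without CLIP siUPF1 replicate 3. Of the 1392 genes that rose in E797R, the difference to CLIP was called for 121, above 0 for 50 and below 0 for 71. Of the 1290 that fell, it was called for 150, above 0 for 40 and below 0 for 110. Against LECY, 112 genes (0.671%) were higher and 519 (3.11%) lower, or 540 (3.23%) and 1040 (6.23%) with the replicate block.

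The set of 1571 genes that rose in CLIP by at least 1.5-fold (9.41% of genes tested) was followed in E797R, whose libraries did not choose it. The mean log2 change of the set was 0.38, 0.41 and 0.32 in the 3 replicate numbers of E797R, or 0.37 ± 0.05 (SD, n = 3). In WT it was 0.41 ± 0.04, in LECY 0.83 ± 0.03 and in CLIP itself 0.96 ± 0.04. The E797R values lay below every LECY and CLIP value. The WT values were 0.44, 0.43 and 0.37, so the ranges of the 2 lines overlapped, with E797R the lower within each of the 3 replicate numbers. That difference was not tested. The E797R mean was 38.4% of the CLIP mean. In E797R, 562 of the set rose (35.8%) and 13 fell, against 8.34% and 7.73% of all genes. In WT 618 rose (39.3%) and 7 fell, against 8.43% and 6.98% of all genes. In LECY 1352 rose (86.1%) and 0 fell, against 15.8% and 13.6% of all genes.

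The 1447 genes lowered in CLIP (8.67%) changed by -0.57, -0.58 and -0.54 in E797R, or -0.56 ± 0.02 (SD, n = 3), which was 56.2% of the CLIP mean. The WT values were -0.59, -0.60 and -0.56, farther from 0 than E797R within each replicate number, and this was not tested either. Of the 1447 genes, 594 fell in E797R (41.1%) and 4 rose, against 7.73% and 8.34% of all genes. In WT 597 fell (41.3%) and 3 rose, against 6.98% and 8.43% of all genes. In LECY 1070 fell (73.9%) and 0 rose, against 13.6% and 15.8% of all genes. The CLIP values are chosen by the set's own rule and serve only as its scale.

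**Figure D3:**
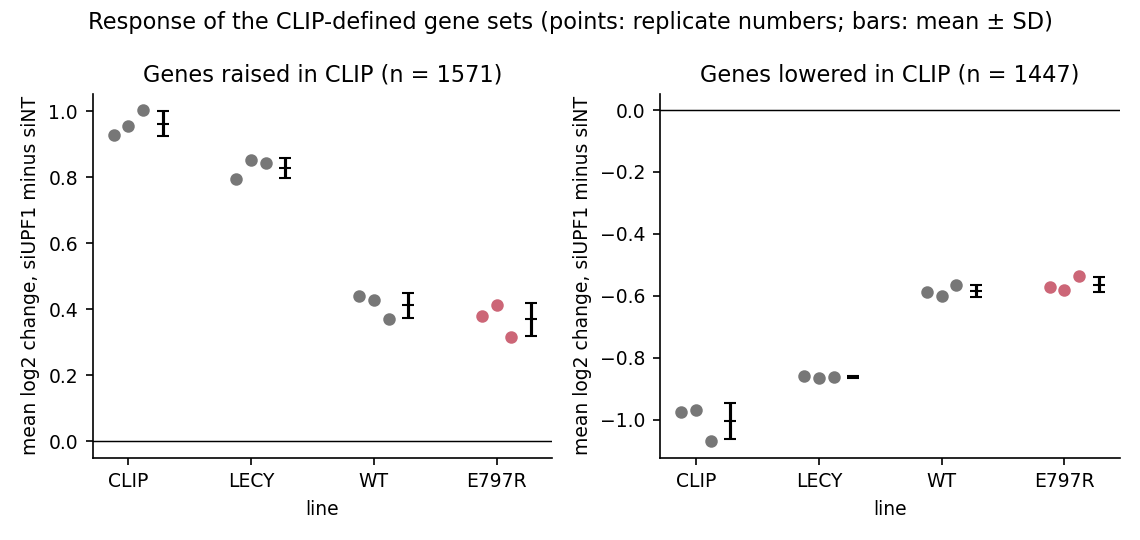
Mean log2 change with siUPF1 of the 1571 genes raised (left) and the 1447 lowered (right) in CLIP, by line; points are replicate numbers and bars are the mean ± SD. E797R (red) lies at 0.37 and -0.56, beside WT and nearer to 0 than LECY.

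NMD targets had different responses in E797R and CLIP. Of 56 listed targets, all tested, 4 rose and 8 fell in E797R (7.14% and 14.3%, against 8.34% and 7.73% of all genes), with a median log2 change of -0.05 against -0.01 for all genes. With the block, 10 rose and 12 fell (14% and 13.5% of all genes). In CLIP, 32 rose and 5 fell (against 18.1% and 15.6% of all genes), with a median of 0.68. The difference to CLIP was lower for 24 of the 56 and higher for 0 (4.51% and 1.5% of all genes), and that to WT was called for 0, with 38 of 56 intervals within 1.5-fold and 50 within 2-fold.

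GADD45A, a stress-induced growth arrest gene, was at 32.1, 29.8 and 47.4 CPM with siNT and 27.8, 24.6 and 38 CPM with siUPF1. The groups overlapped, and its log2 change was -0.26 in E797R and 1.01 in CLIP (difference -1.27, adjusted p = 0.00526). RASSF1, a Ras-association tumour suppressor, was at 14.5, 12.5 and 11.9 CPM and then 12.1, 10.1 and 12.7 CPM. Its difference to CLIP was -2.00 (95% interval -2.45 to -1.54, adjusted p = 5.51e-08). ZFAS1, a host of small nucleolar RNAs, changed by -0.25 in E797R and 1.57 in CLIP. GABARAPL1, an autophagy protein, changed by 0.26 and 1.61, and TOE1, a nuclear deadenylase, by 0.15 and 1.42. ATF4, the main transcription factor of the integrated stress response, stood at 725, 744 and 908 CPM with siNT and 761, 747 and 972 CPM with siUPF1, a change of 0.06 against 0.85 in CLIP.

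The 4 targets that rose in E797R were BAG1, ANTXR1, SNHG16 and PANK2. BAG1, a co-chaperone of HSP70, went from 64.7, 67.4 and 43.1 CPM to 111, 123 and 93.2 CPM (log2 change 0.89, adjusted p = 0.000257), and its rise in CLIP was 1.78. PANK2, which starts coenzyme A synthesis, rose by 0.37 (0.92 in CLIP), a call lost without siNT replicate 1, siUPF1 replicate 1 or siUPF1 replicate 2 (adjusted p up to 0.0933). Its difference to CLIP was lost without siUPF1 replicate 3 or CLIP siNT replicate 3 (adjusted p up to 0.0555). ANTXR1, a membrane receptor, rose by 0.67 and SNHG16 by 0.51, the last call lost without siNT replicate 2 or siUPF1 replicate 3 (adjusted p up to 0.0988). The difference of BAG1 to CLIP was lost without siNT replicate 1, siNT replicate 2 or siUPF1 replicate 3 (adjusted p up to 0.0662). PIM3, a serine/threonine kinase, fell most, from 94.7, 90.3 and 97.6 CPM to 39.5, 37.5 and 41.8 CPM (log2 change -1.25, adjusted p = 4.05e-12), with -1.31 in WT and -1.35 in CLIP.

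Among 20 NMD factors, 1 rose and 5 fell in E797R (5% and 25%, against 8.34% and 7.73% of all genes), and the block gave 3 and 5 (14% and 13.5% of all genes). SMG1, the kinase that phosphorylates UPF1, stood at 352, 343 and 308 CPM with siNT and 382, 387 and 361 CPM with siUPF1. These groups did not overlap but the change of 0.17 did not pass (adjusted p = 0.194, and 0.037 with the block), against 1.55 in CLIP (difference -1.38, adjusted p = 3.72e-10). SMG5, an adaptor that recruits decay enzymes, went from 219, 223 and 172 CPM to 154, 163 and 128 CPM, a change of -0.47 (adjusted p = 0.0192), while it rose by 0.72 in CLIP. SMG6, the endonuclease of the pathway, fell by 0.38 and rose by 0.57 in CLIP. SMG9, a subunit of the SMG1 complex, changed by -0.43 and 0.58. RUVBL1, an ATPase that works with SMG1, fell in both (-0.43 and -0.62). DHX34, a helicase, fell by 0.66 in E797R, and PNRC2, a decapping adaptor, rose by 0.36. UPF3B changed by -0.19 in E797R and 0.81 in CLIP. UPF2 changed by 0.13 and 0.70, but its difference did not pass (adjusted p = 0.069). With the block and all 48 libraries, no named-gene call was lost, and the adjusted p of DHX34 was 0.000146. In the fit without the block, the E797R calls of 5 of these factors depended on single libraries. Without siNT replicate 1, siNT replicate 2 or siUPF1 replicate 3, SMG5 and DHX34 had an adjusted p of up to 0.122 and 0.112. SMG6 reached 0.0608 without any of these or siUPF1 replicate 1, and SMG9 reached 0.0948 without siNT replicate 2, siUPF1 replicate 1 or siUPF1 replicate 3. PNRC2 reached 0.204 without siNT replicate 3, siUPF1 replicate 1 or siUPF1 replicate 2. The differences of SMG5, SMG6 and SMG9 to CLIP kept their calls with each E797R or CLIP library left out.

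**Figure D4:**
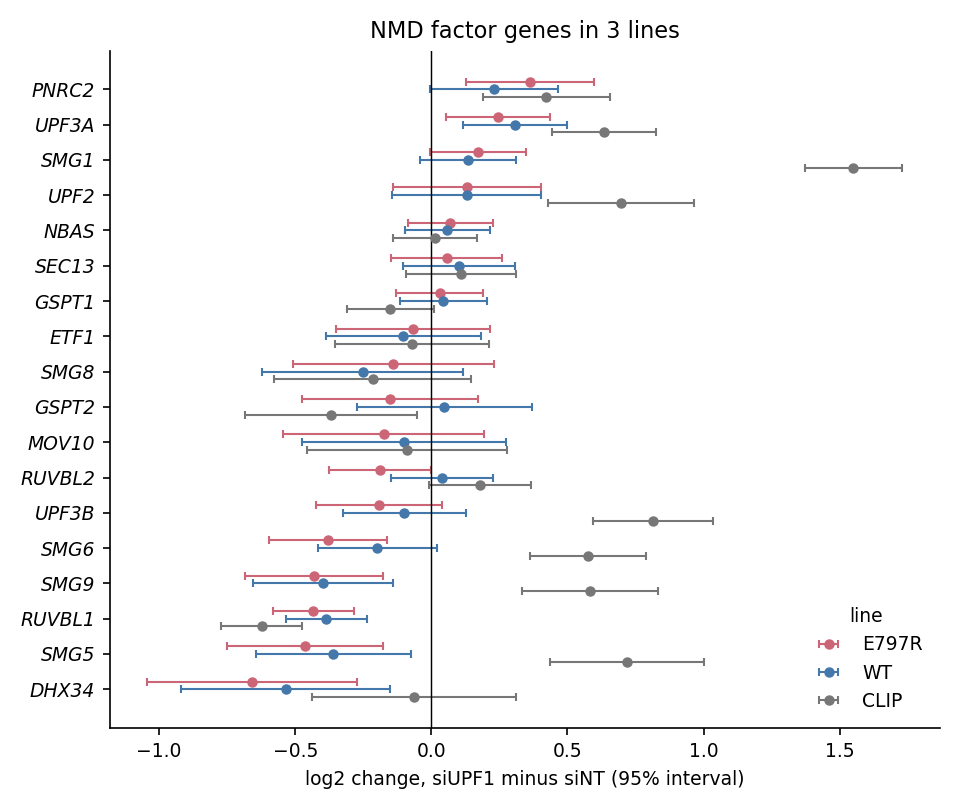
Log2 change with siUPF1 and its 95% interval for the NMD factor genes reported, other than UPF1, in the E797R, WT and CLIP lines. SMG1, UPF3B, SMG5, SMG6 and SMG9 are higher in CLIP, where SMG1 reaches 1.55 against 0.17 in E797R.

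Among the genes called in E797R, 42 fell there and rose in CLIP, and 12 rose there and fell in CLIP. These genes were singled out after their values were seen. The difference passed for all 42 and all 12, which their choice favours. Of the 42, 39 were also below 0 in WT, 13 of them called, and 0 were below 0 in LECY. PDRG1 went from 20.2, 22.7 and 18.4 CPM to 14.7, 15.8 and 12.4 CPM in E797R (log2 change -0.52) and changed by 1.14 in CLIP. PSMC3IP, which acts in homologous recombination, changed by -0.37 and 1.23. PRKAB1, a subunit of AMP-activated kinase, changed by -0.68 and 0.54. Of the 12 in the other direction, CNTNAP2, an axonal adhesion protein, changed by 0.37 and -0.64, and COL3A1, a fibrillar collagen, by 1.48 and -1.40. COL3A1 was low in every E797R library, at 1.06 to 1.5 CPM with siNT and 2.18 to 5.92 CPM with siUPF1. Its adjusted p in E797R was 0.0647 without siNT replicate 1 and 0.2 without siUPF1 replicate 3. That of PDRG1 was 0.0552 without siUPF1 replicate 3 and that of PSMC3IP 0.05 without siUPF1 replicate 1, and CNTNAP2 kept its call only without siUPF1 replicate 1 (otherwise up to 0.162). These fits had no block. With the block and all libraries, the adjusted p in E797R was 0.000762 for COL3A1 and 0.0117 for CNTNAP2.

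The largest differences to CLIP by the fixed rule, which asked for a level but not for a call, mixed genes that passed with genes that did not. MAP2K6, the kinase that activates p38, stood at 43.2, 41.5 and 28.9 CPM with siNT and 27.5, 35 and 27.7 CPM with siUPF1. Its change was -0.35 in E797R and -2.92 in CLIP (difference 2.57, adjusted p = 2.66e-09). FADS2, a fatty acid desaturase, went from 53.4, 36.7 and 54.9 CPM to 9.97, 10.9 and 10.5 CPM, a change of -2.21 against -3.87 in CLIP (difference 1.66, adjusted p = 0.0111). COL21A1 (1.75) and UPF1 (2.36) also passed on the high side, though the UPF1 count adds transgene reads in E797R. COL21A1 lost its call without any 1 CLIP library and without siNT replicate 1, siNT replicate 2 or siUPF1 replicate 3 of E797R (adjusted p up to 0.191). CCT6P1, a pseudogene of a chaperonin subunit, differed by -3.12 and WASH7P by -2.36, both lower, as did AD000671.2 (-3.06), whose adjusted p was 0.0579 without E797R siNT replicate 3. As pseudogenes or overlapping loci share reads with other genes, these values are uncertain.

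The other 9 genes named by that rule did not pass. They were AL139300.1, CU633906.1 (-5.84), SNORD3B-1 (-3.79), SMIM11B (-3.65), TSC22D3 (-2.33, adjusted p = 0.0614), NCKAP1L (2.51, adjusted p = 0.066), IGFN1 (1.65), GDF1 and RNVU1-7. No size is given for AL139300.1, at 0 in a whole group of E797R, or for GDF1 and RNVU1-7, at 0 in all CLIP libraries with siUPF1. Chosen after their values were seen, the largest called differences added ZFAND2A (-2.13), a heat- and arsenite-induced gene, C6orf48 (-2.10), RP9P (-2.09), AC125232.2 (-2.20) and STC2 (-2.22) below 0. They also added METTL7A (1.64), PDLIM2 (1.51), SRGAP3 (1.496) and RAB27B (1.46) above 0.

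Genes of the unfolded protein response, by which cells enlarge the folding capacity of the endoplasmic reticulum, were among those that rose. Classical promoter elements of the response, bound by ATF6 with NF-Y, are shown in 3 RefSeq promoters (GRCh38.p14, 250 bases before to 50 after the start). HYOU1 and PDIA6 rose and HSPA5 did not pass without the block. The log2 changes of PDIA6 and HSPA5, given below, were nevertheless alike. Capitals mark the matches to ERSE-II, ATTGG and CCACG with 1 base between, or ERSE, CCAAT and CCACG with 9 bases between, searched on both strands. HYOU1 has its 2 matches on the opposite strand. The windows are chr11:119057156-119057455, chr2:10812736-10813035 and chr9:125241294-125241593, all on the minus strand and printed 5′ to 3′ along the gene. The PDIA6 window is the one of its 2 that holds the element.
HYOU1: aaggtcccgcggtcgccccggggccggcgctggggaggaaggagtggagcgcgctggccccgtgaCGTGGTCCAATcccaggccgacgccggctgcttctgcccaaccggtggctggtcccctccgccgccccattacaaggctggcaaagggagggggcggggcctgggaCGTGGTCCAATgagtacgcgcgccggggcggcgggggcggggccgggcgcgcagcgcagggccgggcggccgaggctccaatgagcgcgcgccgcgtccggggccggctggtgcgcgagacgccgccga
PDIA6: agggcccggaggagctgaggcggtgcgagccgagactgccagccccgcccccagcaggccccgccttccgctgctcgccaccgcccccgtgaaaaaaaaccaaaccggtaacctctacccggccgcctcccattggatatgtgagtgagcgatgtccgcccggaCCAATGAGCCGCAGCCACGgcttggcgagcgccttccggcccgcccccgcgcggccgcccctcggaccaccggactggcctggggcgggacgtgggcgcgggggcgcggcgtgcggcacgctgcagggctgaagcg
HSPA5: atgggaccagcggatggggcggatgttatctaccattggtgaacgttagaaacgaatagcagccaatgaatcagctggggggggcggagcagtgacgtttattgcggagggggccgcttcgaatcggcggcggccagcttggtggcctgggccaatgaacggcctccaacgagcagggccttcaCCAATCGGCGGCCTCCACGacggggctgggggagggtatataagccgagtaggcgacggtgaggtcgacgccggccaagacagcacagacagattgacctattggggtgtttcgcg
Of 27305 genes with a promoter, 0.0916% held ERSE and 0.0696% ERSE-II. Of the 22 list members with a promoter in the table, 7 held ERSE and 3 held ERSE-II. Of the 6 matched members that rose, 1 held each element, PDIA6 for ERSE and HYOU1 for ERSE-II. The other list members that held an element were not called. A match is a run of letters and not a measured site.

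Of the 25 listed genes, 7 rose and 0 fell (28% and 0%, against 8.34% and 7.73% of all genes), with a median log2 change of 0.09. With the block 8 rose and 0 fell (14% and 13.5% of all genes). In WT 5 rose and in CLIP 8, where 8.43% and 18.1% of all genes rose. As for the other lists, members were chosen with earlier results of these data known. HYOU1, a chaperone of the endoplasmic reticulum, went from 204, 161 and 172 CPM to 310, 294 and 285 CPM, with no overlap (log2 change 0.73, SE 0.12, adjusted p = 2.35e-05). DNAJB9, a co-chaperone of HSPA5, went from 9.1, 8.11 and 11.1 CPM to 22.3, 16.4 and 18.1 CPM (1.02, SE 0.21, adjusted p = 0.000444). SEC24D, a coat protein of export vesicles, rose by 0.69, and SYVN1, a ubiquitin ligase of the degradation pathway, by 0.64. SEL1L, its partner, rose by 0.45, PDIA6 by 0.32 and the sensor ATF6 by 0.28. HSPA5, the main chaperone, changed by 0.32 with an adjusted p of 0.296 (0.00832 with the block). HYOU1 rose in WT (0.85) and CLIP (1.05) too.

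Genes of fatty acid synthesis moved in both directions, with 6 of 20 higher and 4 lower (30% and 20%, against 8.34% and 7.73% of all genes). FADS1, which shares a locus with FADS2, went from 48.9, 49.4 and 51.3 CPM to 21.2, 23.1 and 18.2 CPM (log2 change -1.26, adjusted p = 8.07e-10). ELOVL2, an elongase of polyunsaturated fatty acids, fell by 0.97. FADS2 and ME1 also fell, ME1 by 0.52. ACSL4, which activates long-chain fatty acids, rose by 1.05, FASN, the fatty acid synthase, by 0.65, SCD5 by 0.54 and ACACA, the carboxylase of the first step, by 0.39. ELOVL2 fell further in CLIP, at -1.73 (difference 0.76, adjusted p = 0.00321).

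Of 77 cytosolic ribosomal protein genes, 16 fell and 1 rose (20.8% and 1.3%, against 7.73% and 8.34% of all genes), with a median of -0.16. With the block 36 fell and 1 rose (13.5% and 14% of all genes). RPS24 went from 690.5, 779 and 749 CPM to 448, 461 and 531 CPM (log2 change -0.62, adjusted p = 2.3e-05). RPS23 changed by -0.52 and RPL12, also on the NMD target list, by -0.52. These genes have many near-identical pseudogenes, so their counts are uncertain.

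Of 26 p53 targets, 7 fell and 0 rose (26.9% and 0%, against 7.73% and 8.34% of all genes), with a median of -0.26. The block gave 11 and 2 (13.5% and 14% of all genes). TP53INP1, a cell death and autophagy protein, changed by -0.92, RRM2B, a ribonucleotide reductase subunit, by -0.50, the death receptor TNFRSF10B by -0.48 and the nuclease AEN by -0.44. Of 27 cell division genes, 6 fell and 2 rose (22.2% and 7.41%, against the same shares of all genes). The motility receptor HMMR changed by -0.80 and the kinesin KIF23 by -0.61.

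Genes of the RNA interference machinery rose in 4 of 13 cases and fell in 1 (30.8% and 7.69%, against 8.34% and 7.73% of all genes). AGO1, an Argonaute protein, went from 198, 176 and 169.7 CPM to 274, 263 and 245 CPM (log2 change 0.52, adjusted p = 4.35e-05). DICER1, which cuts miRNA precursors, rose by 0.50 and AGO3 by 0.34, and TNRC6B was the fourth. The scaffold TNRC6C fell by 0.62. In fits without the block, DICER1 lost its call without siNT replicate 3, siUPF1 replicate 1 or siUPF1 replicate 2 (adjusted p up to 0.214). AGO3 lost its call without siNT replicate 1 or siUPF1 replicate 3 (up to 0.0782). With the block and all libraries, the adjusted p was 1.81e-06 for DICER1 and 0.00161 for AGO3.

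Stress and splicing lists had the following counts, to be read against 8.34% and 7.73% of all genes (14% and 13.5% with the block). The 38 members of the integrated stress response had 2 rises and 3 falls (9 and 5 with the block). PSAT1, of serine synthesis, changed by -0.99, and the synthetases NARS and WARS by -0.66 and -0.52. SLC7A5, an amino acid transporter, rose by 0.44 (adjusted p up to 0.118 without siNT replicate 1, siNT replicate 2 or siUPF1 replicate 3), less than in CLIP (1.53, difference -1.09, adjusted p = 0.00012). Of 31 small nucleolar RNA hosts 2 rose and 1 fell, against 18 and 3 in CLIP, where 18.1% and 15.6% of all genes rose and fell. Of 43 splicing factors 1 rose and 1 fell (6 and 9 with the block), LUC7L3 falling from 453, 519 and 495 CPM to 238, 246 and 273 CPM (-0.95, adjusted p = 1.08e-08). Of 16 exon junction complex genes 1 fell and 0 rose.

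Other lists are read against the same shares of all genes. Of 24 cholesterol genes 1 rose and 1 fell (5 and 1 with the block), of 27 peroxiredoxin and thioredoxin genes 2 and 2, of 21 p38 and JNK genes 2 and 2, of 34 mRNA decay genes 3 and 3, of 29 DNA replication genes 2 and 3, of 19 selenoprotein genes 3 and 1 (15.8% and 5.26%), and of 17 interferon genes 2 and 1. PRDX1 rose by 0.67 (adjusted p = 0.0593 without siUPF1 replicate 2) while PRDX2 fell by 0.49. MAPK11, a p38 kinase, went from 8.91, 7.49 and 13.6 CPM to 2.97, 2.01 and 3.91 CPM (-1.70, adjusted p = 0.000694). None of 13 mitochondrial mRNAs and none of 10 structural RNAs were called by edgeR. Of 8 neural markers tested 4 fell (50%, against 7.73% of all genes), namely STMN3, SYP (-1.46), TUBB3 (-0.84) and INA (-0.82). Of 3 fibroblast markers tested COL3A1 rose, of 2 blood markers 0 changed, and of 11 embryonic kidney 293 markers EYA1, a developmental transcription factor partner, rose by 0.80.

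**Figure D5:**
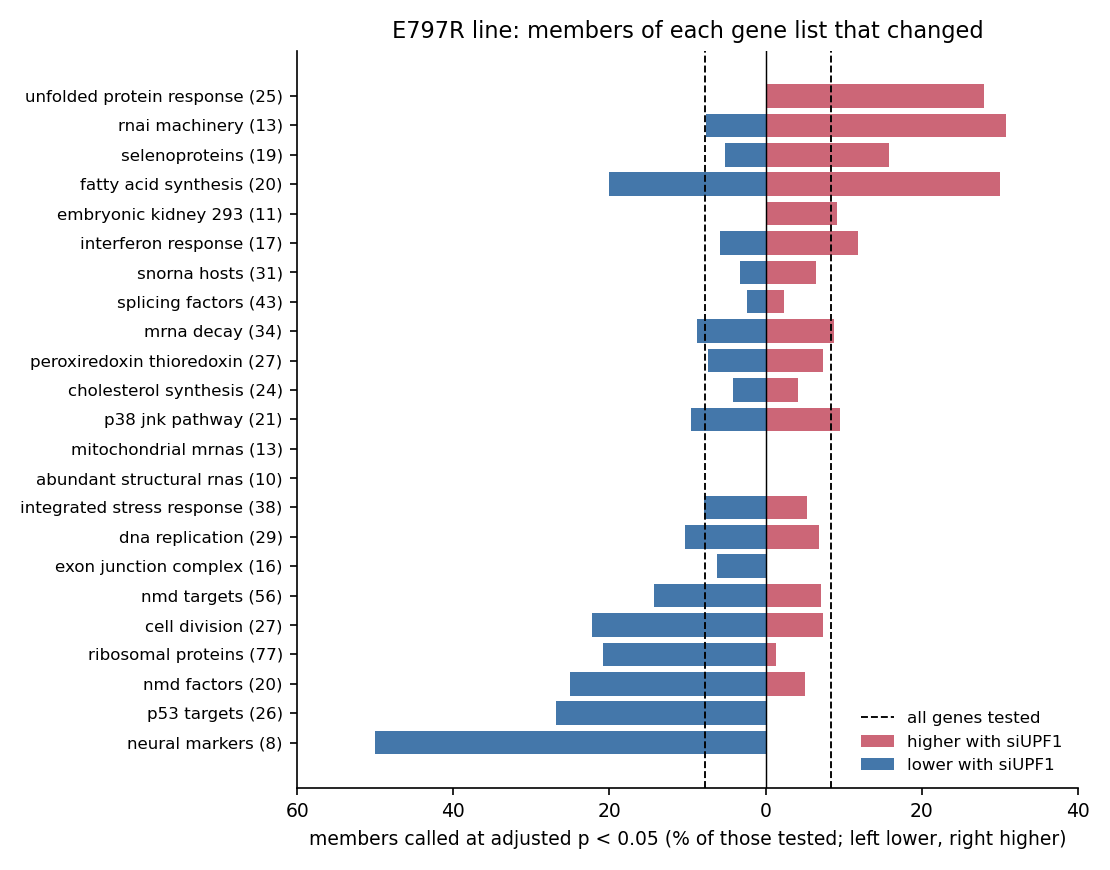
Share of tested members of gene lists that rose (right, red) or fell (left, blue) in E797R at an adjusted p under 0.05, with the number tested in brackets. The blood, fibroblast and ERK lists are not drawn. Dashed lines mark all genes, 8.34% and 7.73%; the unfolded protein response list reaches 28% higher and 0% lower.

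The annotation of the called genes is given as a description, without a test. Of those that rose, 95.8% were protein-coding and 1.36% pseudogenes, against 79.7% and 7.13% of all genes tested. Protein-coding genes that rose had a median transcript of 4037 nt with 12 exons, and those that fell 3321 nt with 8, against 3152.5 nt and 9 for all. Genes that rose were also more abundant, at a median of 46.2 CPM against 19.6 CPM for all. The part of abundance in these shares was not tested. Of the CLIP-raised genes that were not called higher in E797R, 10.3% were pseudogenes, against 2.85% of those that were, with median levels of 16.8 and 38.6 CPM.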

How the data were processed

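RNA-seq of 48 libraries (8 lines, 2 siRNAs, 3 replicates) was used. The authors deposited RSEM expected counts per gene, of which 9.16% were not whole; cutadapt, STAR, RSEM, DESeq2 and hg38 are named in the submitters' processing notes, without versions or roles. Counts were rounded. All 48 libraries were fitted in 16 groups with edgeR 4.0.16 (R 4.3.3): TMM scaling, filterByExpr with a minimum count of 10 (16697 genes), quasi-likelihood tests, Benjamini-Hochberg adjustment over all genes and a threshold of 0.05. Differences between lines are interaction contrasts. CPM are TMM-scaled; mean set changes use log2 CPM with a prior count of 2. Intervals are 95%. Total counts per E797R library ran from 6016999 to 10453889, which limits low genes most.

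Same-numbered siNT and siUPF1 libraries deviated together (correlations 0.296, 0.286 and 0.469; other pairs -0.3 to 0.0471), so the numbers, which come from the labels, pair the samples. The labels call the replicates biological, with no further detail, so p-values measure the spread between these samples.

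Coordinates are GENCODE 29, with 16667 tested genes matched. In data simulated for the E797R knockdown (16498 genes), 61.2%, 88.1% and 100% of 1.5-, 2- and 4-fold changes were recovered, with 7 false calls. The changed genes all had a mean of at least 5 CPM, and no effect of the replicate number was simulated. Unchanged genes had the same mean in every group, so these rates need not hold for the real data.

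By rule the text names UPF1, the top 12 risers and the top 12 fallers among called genes with a group mean of at least 5 CPM and groups not overlapping, the 6 (WT) and 8 (CLIP) largest differences each way with a group mean of at least 5 CPM and no call required, the 4 smallest adjusted p in each of 25 lists, and NMD targets and factors. A selection of called differences only was added after the values were seen and is reported apart, as are the genes with opposite calls; other list members outside the rule (such as PDIA6, ATF6, SEL1L, FASN, SCD5, ACACA, ME1, HSPA5 and TNRC6B) were named after their values were seen. A few items that the rules select are not reported here, though counts include them. Members and lists were chosen with earlier results of these data known. DESeq2 1.42.0, RLE scaling, no filter, the replicate block, fewer groups and leaving out libraries were the alternatives; leaving out WT, CLIP and LECY libraries was added after seeing the data.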

Additional observations from a re-analysis of the deposited data

Results flagged for a closer look

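The knockdown effect in E797R differed from that in CLIP for 251 genes on the high side and 753 on the low side, and from that in LECY for 112 and 519, each by the test of the difference itself (edgeR, adjusted p under 0.05). Among named genes, the log2 difference E797R minus CLIP was above 0 for FADS2 (1.66), COL21A1 (1.75), UPF1 (2.36) and MAP2K6 (2.57). It was below 0 for CCT6P1 (-3.12), AD000671.2 (-3.06), WASH7P (-2.36), STC2 (-2.22), RASSF1 (-2.00), ZFAS1 (-1.83), PPP1R15A (-1.39), SMG1 (-1.38), GABARAPL1 (-1.36), NAT9 (-1.27), TOE1 (-1.27), GADD45A (-1.27), SNHG15 (-1.24), UPP1 (-1.23), SMG5 (-1.18), SMG9 (-1.01), UPF3B (-1.004), SMG6 (-0.95), GAS5 (-0.95), BAG1 (-0.89), SNHG1 (-0.89), IFRD1 (-0.81), ATF4 (-0.78), TBL2 (-0.77), CARS (-0.69), TRA2B (-0.66) and PANK2 (-0.56). Several of the last group are NMD targets or NMD factors. The UPF1 count adds transgene reads in E797R, so its difference cannot be read as a response of the endogenous gene alone. The PPP1R15A difference lost its call (edgeR adjusted p up to 0.118) without siNT replicate 1, siNT replicate 3, siUPF1 replicate 1 or siUPF1 replicate 2 of E797R, and without siNT replicate 2, siNT replicate 3 or siUPF1 replicate 1 of CLIP. The differences of COL21A1, BAG1, PANK2 and AD000671.2 also lost their calls without some single libraries, as given above. No explanation was tested. With 3 libraries per group, no library was tested as standing apart.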

How the results depend on the processing

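No named-gene result that was called in the main fit or in an alternative changed sign between them. The signs of the other called genes were not compared. With the replicate block (the paired fit) the E797R counts were 2330 higher and 2253 lower, or 2813 and 2657 from the 6 E797R libraries alone. The block gave 929 and 1454 for the difference to CLIP, and 540 and 1040 to LECY. With only the groups of each contrast and no block, they were 741 and 653 for E797R, 105 higher (546 lower) against CLIP, and 35 and 311 against LECY. A 1.5-fold minimum left 530 and 657. Without the filter on low counts, the difference to WT was called for 5 genes higher and 13 lower, largely small RNAs of many copies and read-through loci, and to CLIP for 167 higher. The genes so called against WT had all been tested in the main fit too, where none passed. SNORD3B-1, for example, had an edgeR adjusted p of 3.2e-115 without the filter. Leaving out 1 E797R library gave 950 to 1187 higher and 900 to 1059 lower, 134 to 210 and 614 to 746 against CLIP, 71 to 93 and 407 to 496 against LECY, and 0 against WT. Leaving out 1 CLIP library gave 130 to 249 and 583 to 749, 1 LECY library 69 to 102 and 411 to 479, and 1 WT library 0. The NMD target median stayed between -0.09 and -0.03 without 1 library. The CLIP-raised set changed by 0.35 to 0.40 without 1 replicate and by 0.47 when limited to genes at least 2-fold higher in CLIP. Of 288 results for the 24 largest genes under alternatives, 281 kept direction and call; FHAD1, MGAT3 and NOTCH3 lost theirs as given above. Leaving out 1 E797R library lost the call in 29 to 50 of 372 results for named genes. All fits that left out a library were made without the block. The block changed the call of 37 of 372 named-gene results, each of them gaining a call. The causes of these shifts were not tested. Depth limits low genes, since the lowest total was 6016999 counts.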

Other observations

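Targets and feedback regulators of ERK signalling, a list of 21 genes drawn up after values of these data were seen and therefore given with no test of the list, were lower in E797R for 9 members and higher for 1 (42.9% and 4.76%, against 7.73% and 8.34% of all genes), with a median log2 change of -0.74 against -0.01 for all genes. In WT 10 fell and 1 rose (against 6.98% and 8.43% of all genes), and in CLIP 11 fell and 0 rose (against 15.6% and 18.1%). ETV4 (-2.71), ETV5 (-2.21), FOSL1 (-1.96), SPRY4 (-1.92), ETV1 (-1.46), DUSP6 (-1.42), EPHA2 (-0.82), DUSP4 (-0.74) and SPRED1 (-0.60) fell. CCND1, a cyclin of the start of the cell cycle, rose by 0.65, a call lost without siNT replicate 2, siNT replicate 3 or siUPF1 replicate 1 (edgeR adjusted p up to 0.0967). With the replicate block and all libraries, its edgeR adjusted p was 5.08e-06. SPRED1 lost its call without siNT replicate 1, siNT replicate 2, siUPF1 replicate 1 or siUPF1 replicate 3 (up to 0.0769), and DUSP6 without siNT replicate 2 (0.0583). ETV5 stood at 42.6, 56.9 and 29.8 CPM with siNT and 11.2, 10.7 and 6.26 CPM with siUPF1. DUSP6, a phosphatase of ERK, went from 17.2, 22.7 and 8.38 CPM to 6.79, 7.04 and 4.47 CPM, with no overlap. The same genes changed in WT by -1.92 (ETV5) and -1.21 (DUSP6). EGR1, an immediate early gene, was at 15.9, 49.4 and 16.5 CPM and then 8.69, 10.7 and 15.5 CPM (adjusted p = 0.194 by edgeR). FOSL1 changed by -0.55 in CLIP, and its difference was -1.40 (adjusted p = 0.01).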
